A study of Mus musculus with 24 samples.

Results

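The 10 genes described here encode parts of the cytosolic HSP70 and HSP90 chaperone system, 1 mitochondrial HSP70 and 1 transcription factor. These were Hspa1a, Hspa1b, Hspa8, Hspa9, Hsph1, Hsp90aa1, Dnajb1, Dnaja1, Bag3 and Hsf1. They were taken by gene symbol, and all 10 were matched among the 47643 genes of the count table. Of these, 9 were among the 10159 genes that passed the filter on low counts, and Hspa1b did not. Plantaris muscle, a fast hindlimb muscle, came from wild type C57BL/6 mice. The air group held 11 samples from mice exposed to normal air, and the smoke group held 13 samples from mice that had breathed tobacco smoke over 16 weeks. Age was not given in the sources used here, nor was the time between the last exposure and the removal of the muscle. RNA was read from the 3′ end of transcripts, so that counts were not divided by gene length and levels of different genes are not compared. The labels number replicates but do not say that each came from a separate mouse, so p-values measure the spread between these samples.

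HSP70 proteins bind exposed hydrophobic stretches of unfolded proteins and release them in a cycle driven by ATP. J-domain proteins deliver the clients and start ATP hydrolysis, nucleotide exchange factors such as the BAG and HSP110 proteins reset the cycle, and HSP90 takes over clients near their folded state. Heat shock factor 1 (HSF1) switches on the inducible members by binding heat shock elements, which are inverted repeats of a short unit in the promoters. In skeletal muscle these chaperones are known to respond to contraction, heat and load, and BAG3 helps to clear damaged proteins of the contractile apparatus.

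The promoter stretches below are shown because Hspa1a, the inducible HSP70 gene with the largest fold change among the members, has a near-identical copy, Hspa1b, and because both carry the same partial heat shock element. Sequences are from RefSeq (GRCm38.p6), 5′ to 3′ on the strand of the gene, and capitals mark a match to 2 units of the element (TTCNNGAA or GAANNTTC, searched on both strands). The 140 bases before the RefSeq start of Hspa1a (chr17:34972157-34972296, minus strand) and of Hspa1b (chr17:34959239-34959378, minus strand) hold the match 104 bases upstream.
Hspa1a: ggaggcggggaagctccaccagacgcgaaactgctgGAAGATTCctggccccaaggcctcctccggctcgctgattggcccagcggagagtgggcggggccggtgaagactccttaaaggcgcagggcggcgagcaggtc
Hspa1b: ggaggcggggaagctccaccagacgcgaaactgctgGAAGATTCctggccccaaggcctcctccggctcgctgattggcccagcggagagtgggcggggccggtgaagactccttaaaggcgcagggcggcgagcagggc
Over 250 bases before the start the copies were 98.8% identical. Stretches of 30 bases from Hsph1 (chr5:149636351-149636380, minus strand), from Dnaja1 (chr4:40722333-40722362, plus strand) and from Dnaja4, a J-domain gene outside the 10 that is described below (chr9:54699458-54699487 and chr9:54699496-54699525, plus strand), show matches of the same kind.
Hsph1: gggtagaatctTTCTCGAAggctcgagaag
Dnaja1: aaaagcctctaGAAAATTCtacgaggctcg
Dnaja4, farther match: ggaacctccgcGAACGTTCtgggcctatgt
Dnaja4, nearer match: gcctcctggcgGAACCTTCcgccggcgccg
The promoter table held 6 of the 10 genes (Hspa1a, Hspa1b, Hsph1, Dnajb1, Dnaja1 and Bag3). Some of the 6 genes have more than 1 RefSeq start, which gave 10 windows of 300 bases, and a 2-unit match lay in 6 of the 10. Over all 32851 windows, either 2-unit form was found in 15.1%. Counted by gene, 5 of the 6 had a match in at least 1 window, and 4 had it before the RefSeq start of that window; Dnajb1 had none, and that of Bag3 lay after the start. RefSeq starts can differ from those of the GENCODE gene models given below, and the stretch of Hsph1 lies partly, and those of Dnaja1 and Dnaja4 wholly, inside the GENCODE genes. The 3-unit heat shock element, which contains both 2-unit forms, was found in 0.603% of all windows and in 2 of the 10, both of Hsph1. In the window whose sequence is shown it lay 37 bases after the start. The TATA box TATAAA, present in 13.6% of windows, was found in none of the 10. A match is a description of the letters and does not show that a factor binds there.

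Libraries held 2515697 to 4528845 counts, and 3 counts, taken as the floor of detection, corresponded to 0.665 to 1.15 CPM (counts scaled to a common library total). Values below are CPM on libraries scaled by the trimmed mean of M values (TMM). The 10 markers of fast skeletal muscle, such as Acta1, Ckm and Myh4, summed to 174100 to 273000 CPM in air and 185300 to 235400 CPM in smoke, and none of the 10 passed the test between groups (edgeR adjusted p of 0.05; 1 had an unadjusted p under 0.05, and DESeq2 and limma also called 0). Among markers of other cells, 3 of 5 erythroid genes were called lower under smoke by edgeR, DESeq2 and limma, with summed levels of 486 to 1444 CPM in air and 369 to 883 CPM in smoke. Of the 5 tested of 6 Schwann cell genes, 3 were called higher by edgeR and DESeq2 and 1 by limma, with sums of 118 to 276.5 CPM in air and 178.5 to 856 CPM in smoke. Sums for endothelial cells (160 to 258 CPM in air, 183 to 239.2 in smoke), fibroblasts (229.5 to 339 and 211 to 340) and immune cells (35.6 to 64.7 and 40.2 to 71.4) overlapped. No tested gene of these lists was called by edgeR, DESeq2 or limma, but only 3 of the 6 immune genes were tested. At an unadjusted p under 0.05 in edgeR, 1, 3 and 0 genes were lower. Slow fibre genes (279 to 622 CPM in air, 251.2 to 585 in smoke), with 2 of 6 lower at an unadjusted p under 0.05, also had no call by any of these tools. Adipocyte genes summed to 1152 to 2631 CPM in air and 1396 to 2547 CPM in smoke, with no gene called by these tools and 1 lower and 1 higher at an unadjusted p under 0.05 in edgeR. Smooth muscle genes summed to 39.8 to 80.0 CPM in air and 41.6 to 87.2 CPM in smoke. Of the 2 tested, Myh11 had 7.15 ± 1.92 CPM in air and 10.05 ± 2.06 in smoke (log2 fold change 0.50, edgeR p = 0.00121, adjusted p = 0.0558) and was called higher by DESeq2 but not by edgeR or limma. The part of any of these cells in the results below was not tested. All libraries were read on lane 6, but every smoke library had a lower sample sheet number than every air library, so that sheet position and group cannot be told apart.

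The inducible HSP70 genes had the largest fold changes of the 10 members. Hspa1a fell to 49.7% of its mean air level under smoke, and its copy Hspa1b had lower values as well, at counts too low to be tested with the other genes. Both encode the HSP70 protein that is scarce in unstressed cells and made in large amounts after heat or other protein damage. They lie 9951 bases apart on the minus strand of chromosome 17 (Hspa1a at 34969190 to 34972156, Hspa1b at 34956436 to 34959238; GRCm38).

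Hspa1a ranged from 7.30 to 29.6 CPM in air, with a median of 14.8 (mean 16.6 ± 8.23, SD, n = 11). In smoke it ranged from 3.295 to 19.4 CPM, with a median of 6.95 (mean 8.26 ± 4.27, SD, n = 13). The groups overlapped, but 8 of the 13 smoke samples lay below the lowest air sample and 12 of 13 lay below the air mean. The log2 fold change of smoke against air was −1.02 (SE 0.234, 95% interval −1.50 to −0.54), with an unadjusted p of 0.000110 and an adjusted p of 0.0142 in the edgeR quasi-likelihood test with Benjamini-Hochberg adjustment over all genes tested. The mean CPM was 50.3% lower, and only 0.0886% of the genes tested had a log2 fold change as low or lower. With robust dispersion estimates the adjusted p was 0.0559 at the same fold change. In these bulk samples, fewer cells of a type and less RNA per cell cannot be told apart.

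The spread of Hspa1a was wide in both groups. Air replicates 4, 5 and 3 were highest, at 29.6, 28.6 and 26.3 CPM, and were the 3 air samples above every smoke sample. These 3 libraries had adjacent places in the sample sheet. Smoke replicate 4, at 19.4 CPM, was the single smoke sample above the air mean, and smoke replicate 10 was lowest. With any 1 of the 24 samples left out, the log2 fold change stayed between −1.18 and −0.91 and Hspa1a was called each time (adjusted p from 0.00338 to 0.0376).

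Hspa1b gave 1 to 25 counts per air sample and 3 to 13 per smoke sample, or 150 and 89 counts in all. In air it ranged from 0.315 to 8.64 CPM with a median of 3.89 (mean 3.84 ± 2.44, SD, n = 11), and in smoke from 0.967 to 4.14 with a median of 1.73 (mean 2.005 ± 0.888, SD, n = 13). Air replicates 6, 3, 5 and 4 lay above every smoke sample, while air replicate 11, with a single count, was the lowest of all 24. In a fit without the expression filter, over 27644 genes, its log2 fold change was −0.94 (SE 0.281, 95% interval −1.50 to −0.38) and did not pass (edgeR p = 0.00123, adjusted p = 0.0978).

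The coding parts of the copies are 99.4% identical, while their 3′ untranslated parts are 47.3% identical, and reads from the 3′ end can be assigned only where they differ. Hspa1a made up 81.5% of the counts of the pair in air and 80.5% in smoke, and 67.5 to 97.1% in single samples. Added into 1 row, the pair ranged from 8.69 to 34.5 CPM in air (median 18.7, mean 20.5 ± 10.04, SD, n = 11) and from 4.39 to 23.6 CPM in smoke (median 9.22, mean 10.3 ± 5.01, SD, n = 13). The combined log2 fold change was −1.005 (SE 0.229, 95% interval −1.47 to −0.54, edgeR adjusted p = 0.0141), close to that of Hspa1a alone. It was lower than the air mean in 12 of 13 smoke samples, and its adjusted p was 0.0593 with robust dispersion. Hspa1a also overlaps the gene Gm20481 on the opposite strand, and whether strand was used in counting is not given in the sources used here. Hspa1l, an HSP70 gene that starts 546 bases away on the other strand, had 11.0 ± 1.63 CPM in air and 8.25 ± 2.50 in smoke (SD). It did not pass (log2 fold change −0.42, edgeR adjusted p = 0.115), and it overlaps Gm10501 on its opposite strand.

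**Figure D1:**
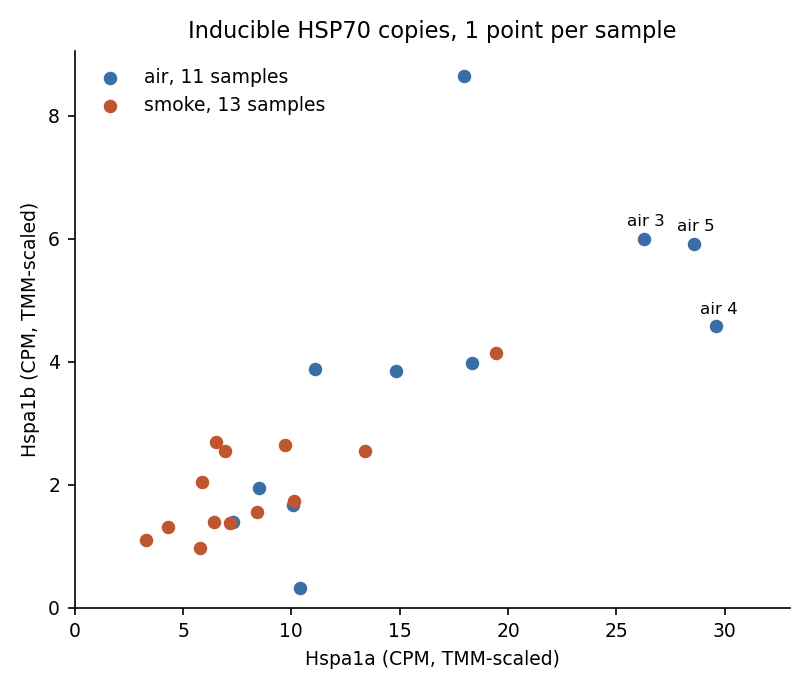
Hspa1a (x axis) and Hspa1b (y axis) in CPM, with 1 point per sample, blue for the 11 air and orange for the 13 smoke samples. The 3 labelled air samples, at 26.3 to 29.6 CPM of Hspa1a, lie to the right of all smoke samples, of which the highest is at 19.4 CPM.

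Neither of the constitutive HSP70 genes passed the test. Hspa8 encodes HSC70, the cytosolic HSP70 of unstressed cells, and is on chromosome 9 (40800984 to 40810087, plus strand). It overlaps Snord14c, Snord14d and Snord14e on the same strand. It ranged from 88.8 to 133 CPM in air (median 109, mean 109 ± 17.2, SD, n = 11) and from 78.4 to 114.8 CPM in smoke (median 96.1, mean 96.7 ± 11.4, SD, n = 13). Although 12 of 13 smoke samples lay below the air mean, the groups overlapped over most of their range. Its log2 fold change was −0.17 (SE 0.0764, 95% interval −0.33 to −0.019) and did not pass after adjustment (edgeR p = 0.0292, adjusted p = 0.247).

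Hspa9 encodes mortalin, the HSP70 of the mitochondrial matrix that pulls in imported proteins, and lies on chromosome 18 (34937414 to 34954357, minus strand). It overlaps Gm22200 and Gm26109 on the same strand. It ranged from 250.3 to 389 CPM in air (median 367, mean 350 ± 38.6, SD, n = 11) and from 309 to 379.6 CPM in smoke (median 347.5, mean 345 ± 23.7, SD, n = 13). The smoke samples lay wholly inside the air range, whose low end was set by air replicate 11. With a standard error of 0.0569, smoke against air differed by −0.021 on the log2 scale (edgeR adjusted p = 0.910), and with 1 sample left out it ran from −0.065 (without air replicate 11, adjusted p = 0.530) to −0.0067. The 95% interval of −0.14 to 0.094 leaves out a change of the size seen in Hspa1a.

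Hsph1 encodes HSP105, an HSP110 protein that is heat-inducible and exchanges the nucleotide of HSP70, on chromosome 5 (149614287 to 149636376, minus strand). In air it ranged from 55.6 to 99.9 CPM (median 67.7, mean 72.5 ± 15.3, SD, n = 11), and in smoke from 49.98 to 78.3 CPM (median 64.4, mean 62.7 ± 8.95, SD, n = 13). Air replicates 6 and 3 stood above the rest, at 99.9 and 97.02 CPM, and together with replicates 9 and 4 they lay above every smoke sample; the other 7 air samples overlapped with smoke. The log2 fold change was −0.21 (SE 0.0920, 95% interval −0.40 to −0.022, edgeR p = 0.0298, adjusted p = 0.249).

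Hsp90aa1 encodes HSP90α, the stress-responsive cytosolic HSP90, on chromosome 12 (110690605 to 110702728, minus strand). Its air values ran from 33.02 to 55.0 CPM (median 44.0, mean 43.4 ± 7.26, SD, n = 11) and its smoke values from 23.4 to 45.4 CPM (median 36.7, mean 36.5 ± 6.71, SD, n = 13). Of the air samples, 5 lay above every smoke sample, and 3 smoke samples lay below every air sample. The log2 fold change of −0.25 (SE 0.0968, 95% interval −0.45 to −0.054) did not pass (edgeR p = 0.0140, adjusted p = 0.178). The constitutive partner Hsp90ab1, or HSP90β, had 2159 ± 236.5 CPM in air and 2038 ± 216.8 CPM in smoke (SD), and −0.084 on the log2 scale (edgeR adjusted p = 0.557). Trap1, the mitochondrial HSP90, had −0.10 (adjusted p = 0.527).

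Of the J-domain genes, Dnajb1 encodes HSP40, the heat-inducible partner of HSP70, on chromosome 8 (83608193 to 83612653, plus strand). It ranged from 7.53 to 23.4 CPM in air (median 11.95, mean 12.7 ± 4.33, SD, n = 11) and from 6.26 to 21.4 CPM in smoke (median 11.0, mean 12.03 ± 4.96, SD, n = 13). The highest air sample, replicate 5, stood far above the next at 15.0 CPM, and smoke replicates 4 and 2, at 21.4 and 21.1 CPM, stood above the rest of their group. The log2 fold change was −0.092 (SE 0.189, 95% interval −0.48 to 0.29, edgeR adjusted p = 0.875), and it was 0.040 without air replicate 5.

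Dnaja1 encodes a constitutive J-domain partner of HSC70, on chromosome 4 (40722150 to 40737149, plus strand). Its air values ran from 30.9 to 52.2 CPM (median 42.1, mean 41.8 ± 5.30, SD, n = 11) and its smoke values from 27.3 to 45.3 CPM (median 35.5, mean 36.0 ± 4.71, SD, n = 13). All but 1 of the smoke samples lay below the air mean, with wide overlap. Its log2 fold change of −0.22 (SE 0.0784, 95% interval −0.38 to −0.058) did not pass (edgeR p = 0.00894, adjusted p = 0.146). Dnaja1 overlaps Smu1 and Gm6297 on the opposite strand and Mir207 on its own, so its counts are uncertain.

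Bag3 was the second member that fell under smoke. It encodes a nucleotide exchange factor that links HSP70 clients to the small heat shock protein HSPB8 and to autophagy, and loss of BAG3 is known to cause muscle disease. The gene is on chromosome 7 (128523616 to 128546981, plus strand) and overlaps 2610306O10Rik on the same strand. It ranged from 272 to 347 CPM in air (median 327, mean 321 ± 23.8, SD, n = 11) and from 243.4 to 337.5 CPM in smoke (median 276, mean 278 ± 24.2, SD, n = 13). Smoke replicate 11 was the single smoke sample above the air mean, and air replicate 5 was the lowest air sample. The mean CPM was 13.5% lower, with a log2 fold change of −0.21 (SE 0.0524, 95% interval −0.31 to −0.10, edgeR p = 0.000333, adjusted p = 0.0273). The call was lost without air replicate 3 (adjusted p = 0.0520), without smoke replicate 6 (0.0511) and without the expression filter (0.0591), with log2 fold changes between −0.22 and −0.20.

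Hsf1, which encodes the factor that switches on the inducible members, lies on chromosome 15 (76477422 to 76501913, plus strand) and was read at low depth, with 8 to 28 counts per sample. It ranged from 3.46 to 7.00 CPM in air (median 5.34, mean 5.21 ± 1.07, SD, n = 11) and from 2.80 to 8.61 CPM in smoke (median 5.28, mean 5.67 ± 1.77, SD, n = 13). Smoke values spread to both sides of the air range, with 3 samples above it and 2 below. Its log2 fold change was 0.11 (SE 0.167, 95% interval −0.23 to 0.45, edgeR adjusted p = 0.821). With 1 sample left out it ran from 0.046 (without smoke replicate 4) to 0.17 (without smoke replicate 8). HSF1 is controlled chiefly by release from chaperones, trimer formation and phosphorylation, which transcript levels do not measure.

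**Figure D2:**
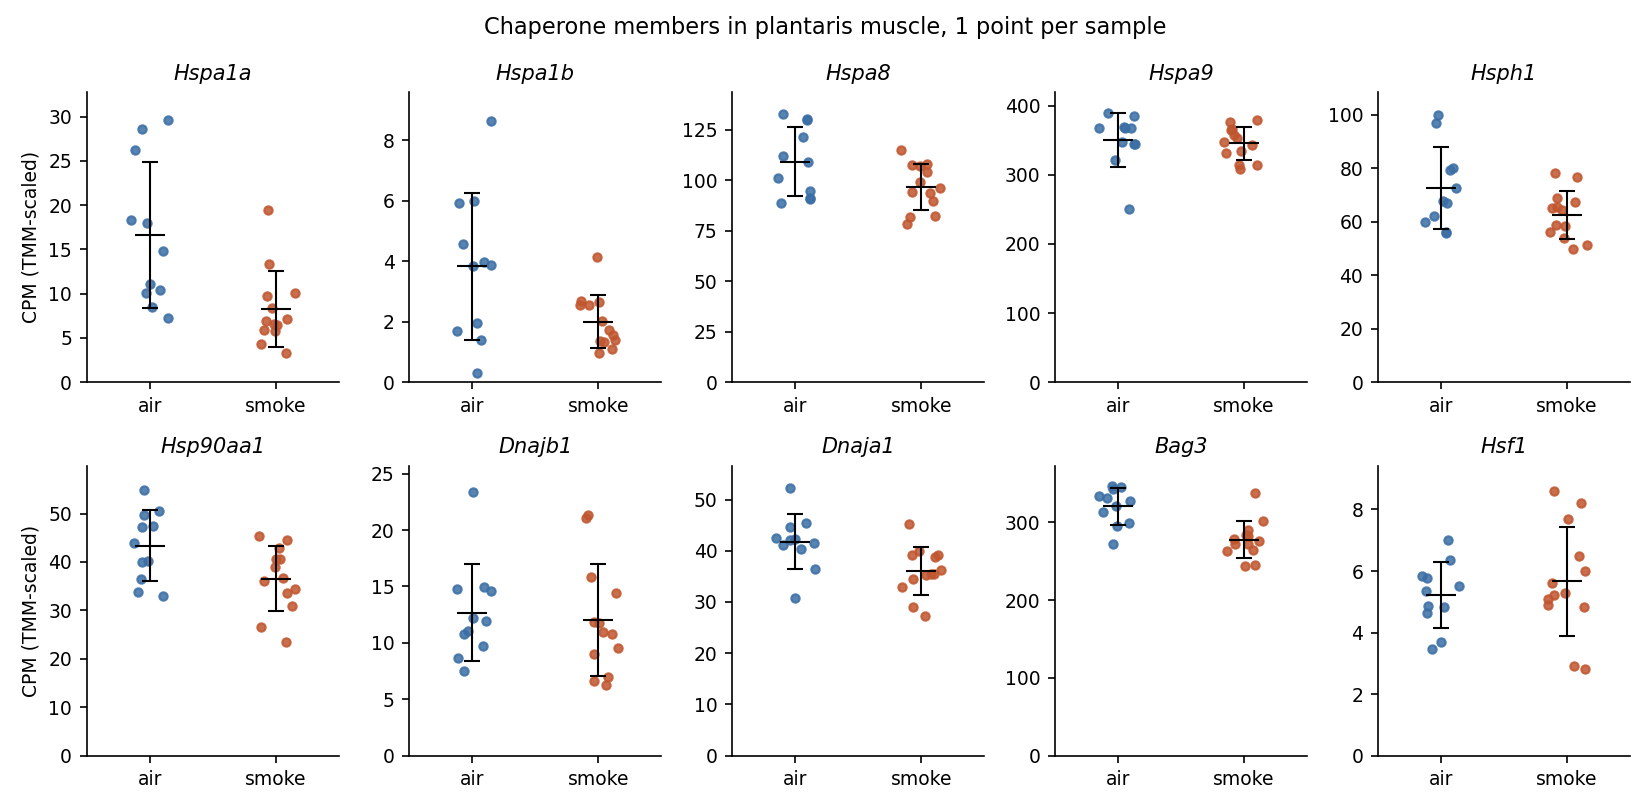
CPM of each of the 10 members (y axis, linear from 0, scaled per gene) in air and smoke, with 1 point per sample and the mean ± SD in black over 11 air and 13 smoke samples. All 10 overlap between groups, and the largest displacement is that of Hspa1a, from a mean of 16.6 to 8.26 CPM.

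Across the 9 members tested, 2 were called lower (Hspa1a and Bag3) and 0 higher, by edgeR, DESeq2 and limma alike; at an unadjusted p under 0.05 there were 6 lower and 0 higher. Among all genes tested 1.92% were called, 1.19% lower and 0.728% higher, and 7.95% were lower at an unadjusted p under 0.05. The members had a median log2 fold change of −0.21, from −1.02 to 0.11, with 8 of 9 below 0. Over all genes tested the median was 0.0066, and 48.4% lay below 0. No member had groups without overlap, which 0.0295% of all genes tested had. The members were selected by name with earlier results of these data known, so these counts describe them and do not set them apart from other genes.

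**Figure D3:**
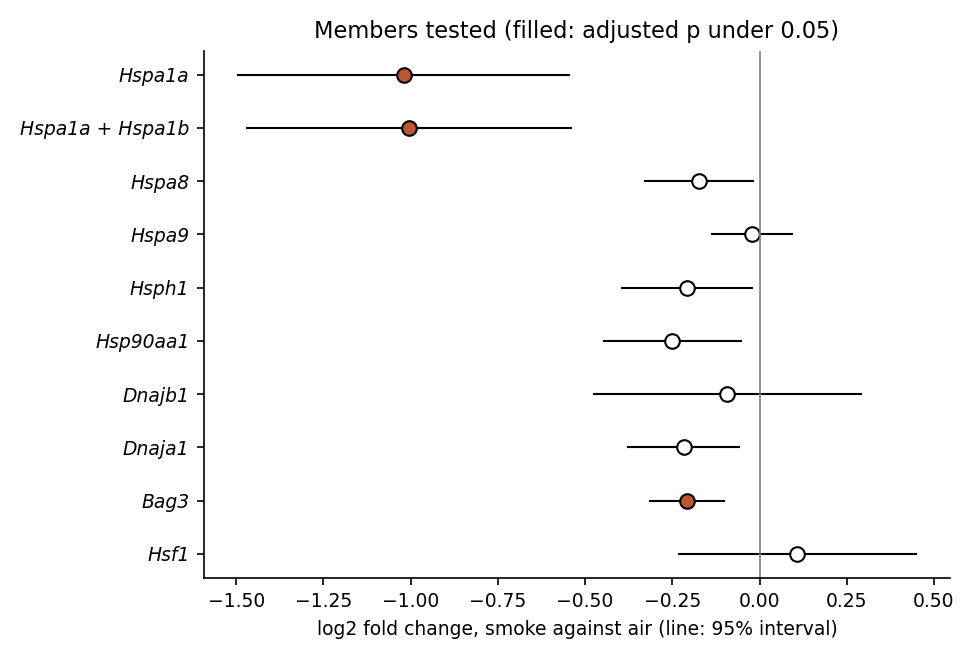
Log2 fold change of smoke against air (x axis) with its 95% interval for the 9 members tested and for the summed inducible pair, filled where the edgeR adjusted p was under 0.05. Hspa1a and the pair lie near −1, Bag3 lies at −0.21 with a narrow interval, and the interval of Hsf1 spans 0.

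The members differed in how far they varied among samples of 1 group. The biological coefficient of variation, the spread beyond counting error, was 36.9% for Hspa1a and 28.6% for Dnajb1, above 99.0% and 94.97% of the genes tested, and above 99.4% and 98.3% of the genes of similar level. For Bag3 it was 9.05% and for Hspa9 9.92%, at percentiles 6.32 and 12.7 of all genes tested and 25.2 and 44.0 of the genes of similar level. Hsf1 (16.9%), Hsph1 (14.9%), Hsp90aa1 (14.6%), Hspa8 (12.6%) and Dnaja1 (10.9%) lay between, beside a median of 14.9% over all genes. Among genes of similar level, Hsph1, Hspa8 and Hsp90aa1 were at percentiles 87.0, 80.5 and 80.3, and Dnaja1 and Hsf1 at 37.1 and 33.1. The inducible Hspa1a and Dnajb1 were thus the most variable of the 9 members tested, and Bag3, which passed the test at a small fold change, was the least variable.

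Of the pairs of members, 1 varied together beyond the threshold. Over the 24 samples, with group means removed, 27 of the 36 pairs of members correlated positively, with a median Pearson r of 0.14 and a range from −0.39 (Hsph1 with Dnajb1) to 0.56 (Hspa9 with Hsf1). The pair Hspa9 and Hsf1 had r = 0.555 (permutation p = 0.0011, adjusted over 36 pairs p = 0.0396) and rho = 0.616 (permutation p = 0.00181, adjusted p = 0.0652). Its r was 0.654 in air and 0.61 in smoke, and 0.413 without the 2 samples farthest from the median. Hspa1a correlated with its constitutive relative Hspa8 at r = 0.526 (permutation p = 0.0117, adjusted p = 0.154) and rho = 0.578 (permutation p = 0.00546, adjusted p = 0.0983), and at r = 0.439 without the 2 farthest samples. No other pair passed after adjustment by either measure. Hspa1a and Bag3, the members that fell, had r = 0.014 among samples of 1 group.

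In air, Dnaja1 followed Hsph1 (r = 0.831) and Hsp90aa1 (r = 0.827), and Hsph1 followed Hsp90aa1 (r = 0.666). In smoke the same pairs had r = −0.057, 0.104 and 0.328. These pairs were picked after their values were seen, and the difference between groups was not tested.

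**Figure D4:**
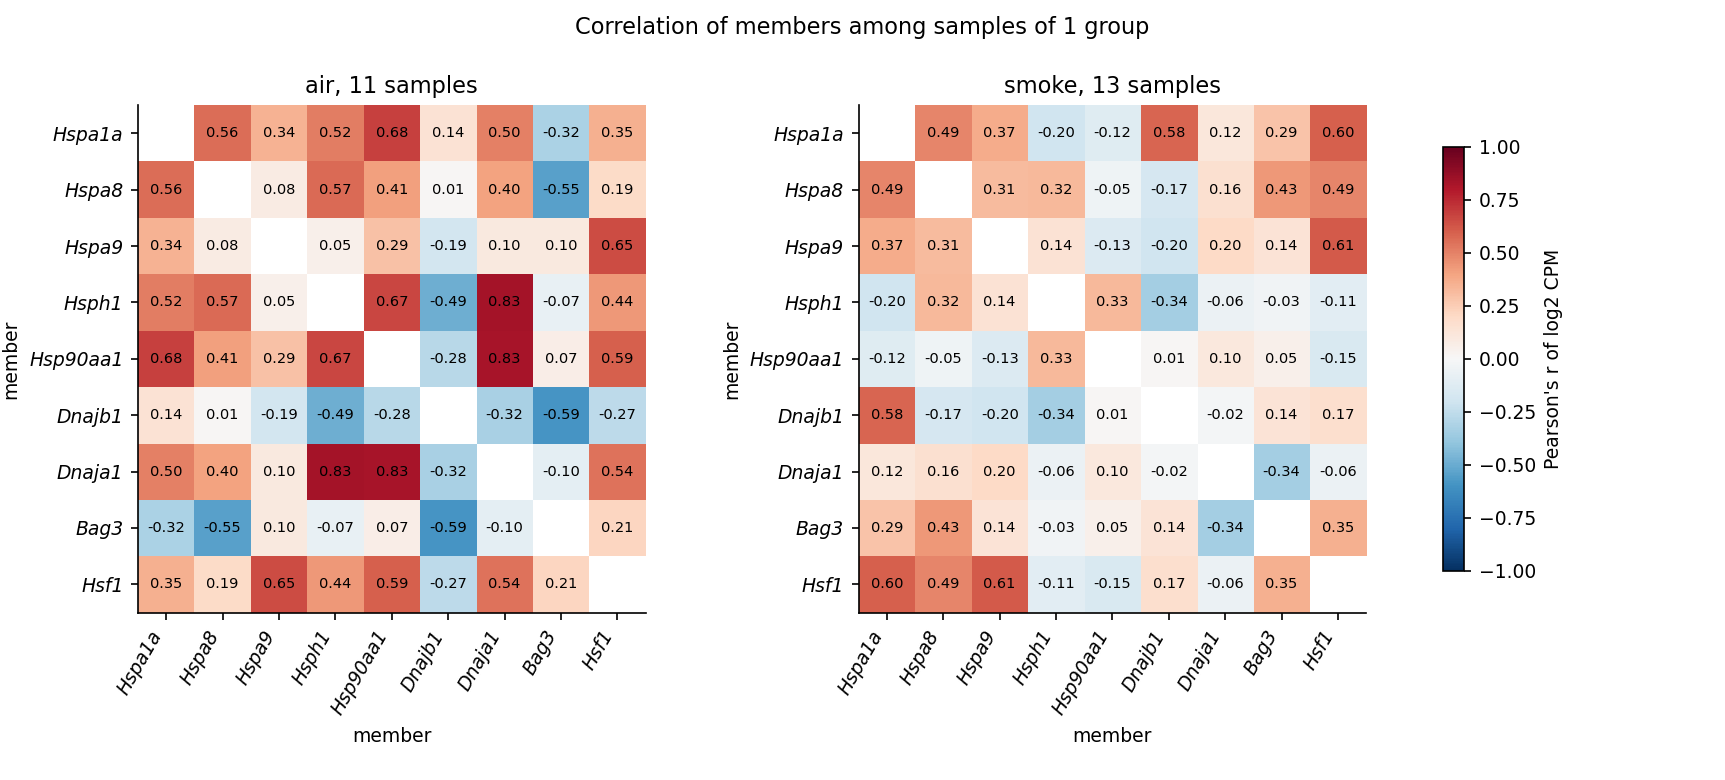
Pearson's r of log2 CPM between pairs of the 9 members tested, in the 11 air samples (left) and the 13 smoke samples (right), from −1 (blue) to 1 (red). Hsph1, Hsp90aa1 and Dnaja1 form a block of high values in air (0.67 to 0.83) and not in smoke (−0.06 to 0.33).

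The genes most like the mean of 3 inducible members among samples of 1 group were found by their correlation with the mean profile of Hspa1a, Dnajb1 and Hsph1 over the 24 samples, group means removed. These 3 did not share 1 profile: Hspa1a correlated with Dnajb1 at r = 0.393 and with Hsph1 at 0.205, and Hsph1 with Dnajb1 at −0.392, so the mean mixes members that ran in opposite directions. The genes closest to the mean were Otud1 (r = 0.815), Slc25a25 (0.801), Slc20a1 (0.792), Jun (0.772), Trib1 (0.734), Id1 (0.724), Ints13 (0.715) and Irs2 (0.707). Jun is an immediate early gene, one of those switched on within minutes of a stimulus, and Trib1 encodes a pseudokinase. Of these 8 genes, Trib1 alone was called between groups (log2 fold change −0.68, edgeR adjusted p = 0.0326). Without the 2 samples farthest from the median, r was 0.503 to 0.752. The genes most like Hspa8 were Kifc3 (0.657), Pgam5 (0.648), Rps13 (0.644), Timm10b (0.642) and Ing1 (0.619), and those most like Hsp90aa1 were 5830487J09Rik (0.737), Eif5b (0.728), Cdc37l1 (0.703), Yars (0.686) and Cbx1 (0.682). These are the highest of 10159 genes and are given as a description. They share library and depth with the members.

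Immediate early genes are given beside Hspa1a because they respond to handling and to stimuli shortly before tissue is taken. None of the 10 tested of 15 was called by edgeR, DESeq2 or limma, and 4 were lower at an unadjusted p under 0.05, with a median log2 fold change of −0.22 over the 10. Atf3 had 6.97 ± 4.21 CPM in air and 2.91 ± 2.54 in smoke (log2 fold change −1.29, edgeR adjusted p = 0.0518), and Jun had 113 ± 32.7 and 88.0 ± 14.3 (−0.37, adjusted p = 0.0784). Summed over the 15 genes, levels ran from 193 to 529 CPM in air (median 291) and from 165.5 to 389 CPM in smoke (median 207.5); Fosb, Egr2, Egr3, Atf3 and Myc were at 0 in some samples. Of the 14 tested of 16 genes of the circadian clock, Nfil3 was called lower and Dbp, Per3 and Nr1d2 higher, with sums of 504 to 668 CPM in air and 529 to 760 in smoke. The part of handling or of the time of day in the result for Hspa1a was not tested.

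Around the members, 65 of 66 other listed chaperone and cochaperone genes were in the table and 63 were tested. By edgeR 2 fell, the J-domain gene Dnaja4 and the chaperonin subunit gene Cct3, and 0 rose (DESeq2 called Hsf2 lower as well); at an unadjusted p under 0.05, 16 were lower and 1 higher. Over all genes tested, 1.19% were called lower and 0.728% higher, and 7.95% were lower at an unadjusted p under 0.05. Among the 63 the median log2 fold change was −0.060, with 50 below 0 and 13 above, beside 48.4% of all genes below 0. Dnaja4, known to be induced by heat, went from 80.5 ± 5.65 to 66.9 ± 6.87 CPM, under the mean of air in all 13 smoke samples (log2 fold change −0.27, SE 0.0595, edgeR adjusted p = 0.0120). Its gene overlaps Wdr61 on the opposite strand. Cct3, a subunit of the ring that folds actin and tubulin, went from 52.5 ± 4.76 to 43.9 ± 4.76 CPM, also lower in 13 of 13 (log2 fold change −0.26, SE 0.0669, edgeR adjusted p = 0.0350). The call of Cct3 was lost when any 1 of air replicates 1, 2, 3, 5, 6 and 8 or smoke replicates 2, 4, 6, 8 and 11 was left out, with adjusted p up to 0.0702, and without the expression filter (adjusted p = 0.0662).

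Of 17 known targets of HSF1 outside the members, 1 was called, Dnaja4, beside 1.19% of all genes called lower. At an unadjusted p under 0.05, 9 were lower and 0 higher, beside 7.95% of all genes lower, and 15 had a log2 fold change below 0, beside 48.4% of all genes. The median of the 17 was −0.14, and the list as a whole was not tested. The small heat shock genes Cryab (999 ± 127 CPM in air, 856 ± 104.5 in smoke, log2 fold change −0.22, edgeR adjusted p = 0.0712) and Hspb1 (−0.27, adjusted p = 0.0914) did not pass. The collagen chaperone gene Serpinh1 (−0.33, adjusted p = 0.0777) and the J-domain gene Dnajb4 (18.8 ± 5.41 and 13.8 ± 3.25 CPM, −0.46, adjusted p = 0.0781) did not pass either. Hsf2, a heat shock factor that pairs with HSF1, had 41.7 ± 4.81 CPM in air and 34.7 ± 4.23 in smoke, below the air mean in 12 of 13 samples (−0.26, edgeR adjusted p = 0.0615; it passed with DESeq2). Its partner in the list, Hsbp1, which binds HSF1, had a log2 fold change of −0.0022.

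The remaining groups held no called gene by edgeR, DESeq2 or limma. Among 16 HSP90 cochaperone genes tested, 2 were lower and 1 higher at an unadjusted p under 0.05. The higher one was Fkbp5, a glucocorticoid-responsive immunophilin gene, with 44.0 ± 10.02 CPM in air and 58.0 ± 17.3 in smoke (log2 fold change 0.40, edgeR adjusted p = 0.114). The lower ones were Ahsa1, which stimulates the HSP90 ATPase (−0.22, adjusted p = 0.116), and Stip1, which bridges HSP70 and HSP90 (−0.14, adjusted p = 0.277). The 8 nucleotide exchange genes had a median of −0.044 and the 7 other HSP70 family genes one of −0.0093, with 0 and 2 lower at an unadjusted p under 0.05. Among the 5 partners of BAG3 in assisted autophagy, the median was −0.060, and Flnc, a filamin that this route clears, had −0.26 (adjusted p = 0.133). The 5 endoplasmic reticulum paralogs, which answer to the unfolded protein response and not to HSF1, had a median of −0.011 with none at an unadjusted p under 0.05. Hspa5, or BiP, had 329 ± 37.3 CPM in air and 317 ± 24.5 in smoke (−0.053, edgeR adjusted p = 0.723).

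**Figure D5:**
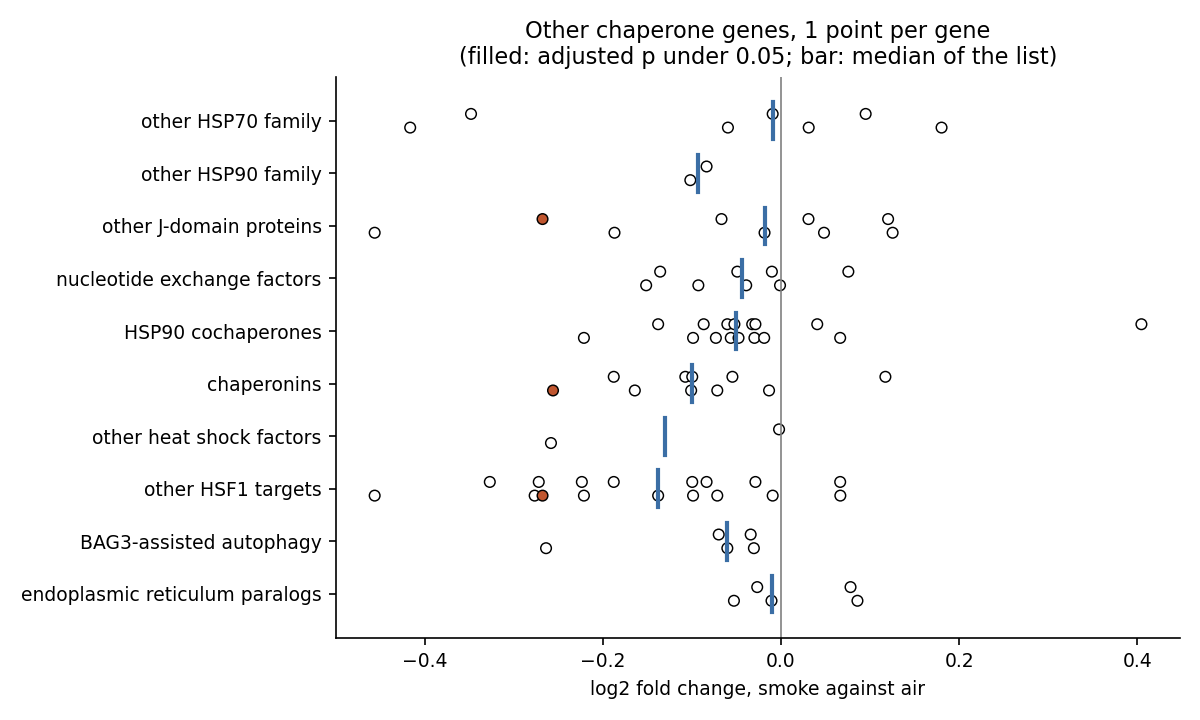
Log2 fold change of smoke against air (x axis) for the other chaperone genes, 1 point per gene and 1 line per list, filled where the edgeR adjusted p was under 0.05, with the list median as a blue bar. Dnaja4 stands in 2 lists, and the medians run from −0.14 for other HSF1 targets to −0.0093 for the other HSP70 family.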

How the data were processed

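The deposited table holds unnormalised read counts by Ensembl gene ID and sample, made by the authors. Per the labels' protocols, a Lexogen QuantSeq 3′ forward kit was used, which reads near the poly(A) tail. STAR, DESeq2 and build mm9 are named by the submitters' processing notes; how strand or duplicate reads were treated is not given in the sources used here. Symbols and coordinates came from GENCODE M21 (GRCm38), which may differ from the annotation used for counting; 47224 IDs matched.

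Counts were fitted with edgeR 4.0.16 in R 4.3.3 (filterByExpr with minimum count 10, TMM, quasi-likelihood F-test, all 24 samples, no covariate), with Benjamini-Hochberg adjustment over 10159 genes and calls at an adjusted p under 0.05. Correlations used log2 CPM with a prior count of 2 and 1e+05 permutations within groups. The procedure was tested on simulated data. Counts of 133 within-group pairs differed beyond sampling noise (chi-square averaged over genes, from 2.52 to 18.5 across the pairs), so no samples were merged. Intervals of fold changes include the spread between samples, while floors cover counting error only.

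The members and lists were chosen with earlier results of these data known. All members are named, and from each other list the called genes and up to 3 with the smallest p; some further genes were named after their values were seen. Alternatives were other scalings, DESeq2 1.42.0, limma 3.58.1 (voom), robust dispersion, other filters, removal of the 10 most abundant genes, the replicate number as a block and each sample left out in turn.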

Additional observations from a re-analysis of the deposited data

How the results depend on the processing

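Over all genes, 195 were called by edgeR, 323 by DESeq2 (202 lower, 121 higher) and 141 to 254 with 1 sample left out. The 2 members called became 1 with robust dispersion (Bag3), without the expression filter (Hspa1a) and with the replicate block (Hspa1a), and 1 to 2 with 1 sample left out. The summed inducible pair kept its log2 fold change of −1.005 with robust dispersion but not its call (adjusted p = 0.0593), and ran from −1.16 to −0.90 with 1 sample left out. The 2 other chaperone genes called became 0 with the replicate block in edgeR (16 at an unadjusted p under 0.05) and 1 to 5 with 1 sample left out, with 5 without air replicate 11 and 4 without smoke replicates 11 or 13. Dnajb1 ran from −0.19 to 0.040. The cause of these shifts was not tested. Hspa8, Hspa9, Hsph1, Hsp90aa1, Dnaja1 and Hsf1 kept their direction and stayed uncalled under all alternatives run.

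Same-numbered air and smoke samples did not deviate together on average (11 pairs, mean r −0.0059, from −0.28 to 0.14). Of the 11, 3 correlated best with their own number. The labels do not say that the numbers pair samples, and these correlations cannot exclude a weak pairing. With the replicate block over the 11 shared numbers, 138 genes were called, and the adjusted p was 0.0653 for Bag3, 0.0538 for Dnaja4 and 0.0962 for Cct3. Depth limits Hspa1b and Hsf1 most, and the interval of Hsf1 includes a change of the size seen in Bag3.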
